A study of Mus musculus with 32 samples.

Results

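Adhesion of developing B cells was examined through 9 genes, the integrin subunits Itga4, Itga5, Itga6, Itgal, Itgam, Itgb1, Itgb2 and Itgb7 and the tetraspanin Cd9. They were chosen by name, with earlier results of these data known, so their shares beside those of all probe sets are descriptive only. Every probe set annotated to 1 of them alone was used. This gave 23 of the 45037 probe sets tested and 9 of the 18193 genes with a single-gene probe set. Affymetrix mouse arrays, 32 in all, covered 3 experiments on the B-lineage transcription factor Ebf1. In the first, cells of the mouse pre-B line 230238 were infected with the retroviral vector pMIG carrying Ebf1-engrailed (Ebf1-Eng, 3 samples), a fusion of Ebf1 with a repressor domain, or with the empty vector (3 samples), and 500000 GFP-sorted cells were taken per sample. In the second, Ebf1-/- fetal liver cells of C57BL/6J embryos at E14.5, kept on OP9 stroma and with Ebf1-ER, which becomes active when 4-hydroxytamoxifen is given, were exposed to 0.1 µM of the drug for 0, 6, 12 or 24 h (2 samples each). In the third, live cells sorted after thawing from 8 enlarged lymph nodes of Ebf1+/- Pax5+/- mice of about 30 weeks (2 arrays per node) were set against 2 arrays of wild-type (WT) pro-B cells, with 1000000 cells per sample. Nodes are named by the number in their titles, which the labels do not explain and which was read as 1 mouse each.

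Integrins are heterodimers of an α and a β chain that bind matrix proteins and counter-receptors on other cells, and their affinity is raised from inside the cell by talin and kindlin. The α4 chain pairs with β1 (VLA-4, a receptor for VCAM-1 and fibronectin that holds B-cell precursors to marrow stroma) or with β7 (a receptor for the gut addressin MAdCAM-1). The α5 and α6 chains pair with β1 as receptors for fibronectin and laminin. The αL chain (LFA-1) and the αM chain (Mac-1, abundant on myeloid cells) pair with β2 and bind ICAMs. Cd9 is a membrane organiser that associates with integrins and marks several stages of B-cell development.

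The promoters of Itga4, Itgam and Itgb7, the 3 members whose probe sets were all lower within 6 h of Ebf1-ER activation (below), are shown for the Ebf1 and PU.1 motifs they hold. RefSeq sequence (GRCm38.p6, 250 bases before to 50 after the annotated start, each in the direction of the gene) was available for 6 of the 9 genes. Capitals mark CCCNNGGG, the core of the Ebf1 motif, and GAGGAA, the PU.1 box, read on both strands.
Itga4, chr2:79255176-79255475, plus strand: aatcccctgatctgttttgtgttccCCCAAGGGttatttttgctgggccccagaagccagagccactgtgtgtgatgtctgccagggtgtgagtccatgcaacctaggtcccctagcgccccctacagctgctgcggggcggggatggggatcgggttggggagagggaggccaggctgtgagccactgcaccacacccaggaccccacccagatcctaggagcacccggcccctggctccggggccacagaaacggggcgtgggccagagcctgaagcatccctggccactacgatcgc
Itgb7, chr15:102231886-102232185, minus strand: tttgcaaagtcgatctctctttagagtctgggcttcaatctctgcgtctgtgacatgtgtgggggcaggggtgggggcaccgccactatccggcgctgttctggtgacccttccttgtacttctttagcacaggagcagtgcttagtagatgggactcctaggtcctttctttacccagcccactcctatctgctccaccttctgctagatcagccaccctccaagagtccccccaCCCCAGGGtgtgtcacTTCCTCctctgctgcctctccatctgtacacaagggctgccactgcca
Itgam, chr7:128062390-128062689, plus strand: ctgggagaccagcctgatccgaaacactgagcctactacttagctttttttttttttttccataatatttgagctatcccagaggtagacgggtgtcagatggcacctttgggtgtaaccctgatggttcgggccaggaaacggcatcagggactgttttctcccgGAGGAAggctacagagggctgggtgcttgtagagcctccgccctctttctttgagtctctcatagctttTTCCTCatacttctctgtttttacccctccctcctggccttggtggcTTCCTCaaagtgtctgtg
The core CCCNNGGG was present once in the Itga4 promoter, starting 225 bases before the start site, and once in the Itgb7 promoter, starting 14 bases before it. It was absent from the windows of Itgam, Itgb1, Itga5 and Cd9, and 13.7% of the 32851 promoters of this length held it. The PU.1 box occurred 3 times in the Itgam promoter, at 84 and 15 bases before the start and at base 33 after it, and once each in Itgb7, Itgb1 and Itga5, against 28.3% of all promoters with at least 1. These matches are letters in a window and carry no measurement of binding.

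The deposited values were log2 values centred per probe set, so they give differences between arrays of an experiment but no expression level. Apart from a description by correlation over all 32 arrays (below), they were not compared between probe sets or experiments. Probe sets with the ending x_at or s_at hold probes that can match other transcripts. The labels do not say whether samples came from separate cultures, so p-values cover only the spread among these arrays, part of which may be technical, and the number of arrays limits the precision. A change was called at a limma adjusted p (Benjamini-Hochberg over all probe sets) under 0.05. Ebf1 itself, the gene the study manipulated, was lower in Ebf1-Eng cells on 4 of its 5 probe sets, with a log2 difference of -1.77 on the most changed of them, and was not called on the fifth (-0.37). In the Ebf1-ER cells the same 4 were lower at 24 h than at 0 h, by -0.77 to -0.57 on the log2 scale, and the fifth differed by 0.20 and was not called. In the tumour nodes the 4 were lower than in WT pro-B cells, at -1.01 to -0.72, while the fifth was 22.4-fold higher. The labels do not say which probe sets detect the engrailed or ER fusion. The 2 WT pro-B arrays stood apart from all lymph nodes in a list of 15 myeloid marker genes: the list mean was between -0.67 and 1.19 in the 8 nodes, against 4.14 and 4.32 in the WT arrays. The arrays at 0 h also stood apart from all later times of the Ebf1-ER course, and each later time was compared with the same 2 arrays. Activation of Ebf1-ER, the drug itself and time in culture cannot be told apart there.

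**Figure D1:**
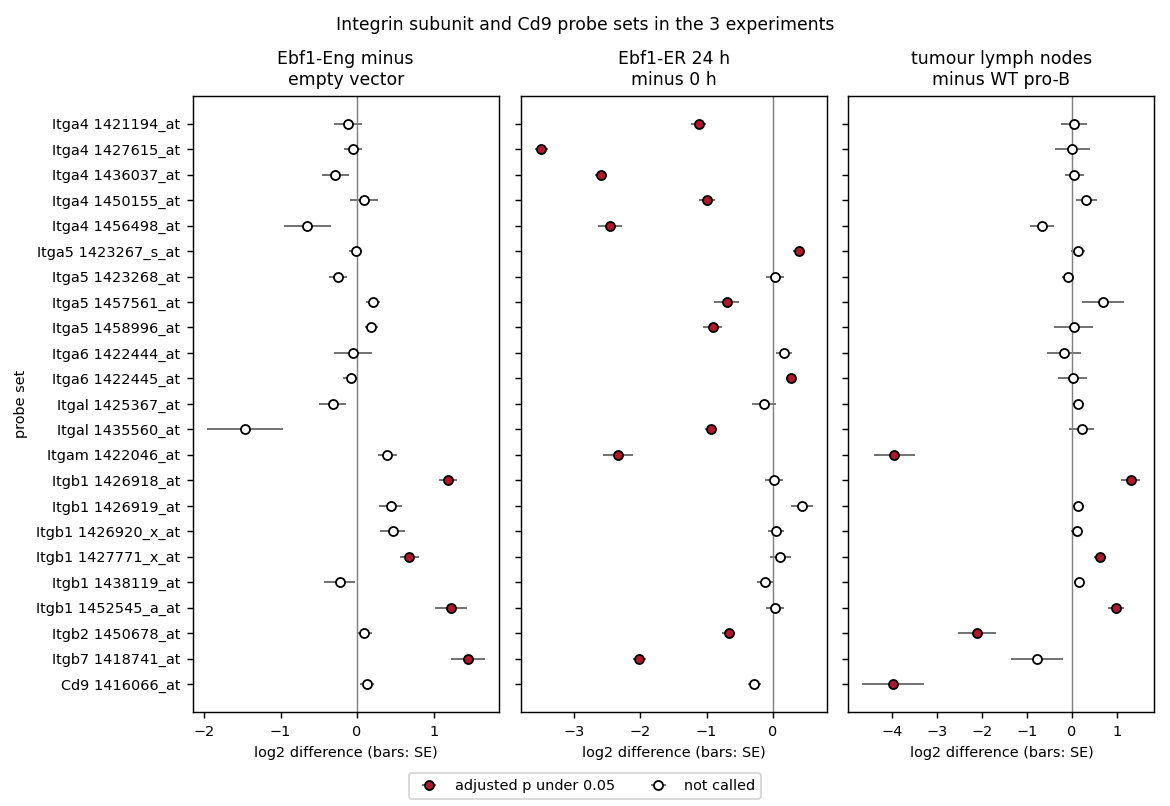
Log2 difference of each of the 23 probe sets (points, with SE bars) for Ebf1-Eng minus empty vector, Ebf1-ER 24 h minus 0 h and tumour lymph nodes minus WT pro-B. Filled points had a limma adjusted p under 0.05: 4 probe sets in the first panel, 13 in the second and 6 in the third.

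The β chains β1 and β7 were higher in 230238 cells carrying Ebf1-Eng, and no member was called lower in the fit without pairing. With the replicate number as a block, which the 230238 samples allow, Itgal 1435560_at (-1.47, limma adjusted p = 0.00647) and Itga4 1456498_at (-0.65, 0.0362) were called lower as well, which made 6 probe sets called. Itgb7, the partner of α4 in the gut-homing integrin, was 2.73-fold higher, and 3 of the 6 probe sets of Itgb1, the common partner of α4, α5 and α6, were 1.61-fold to 2.34-fold higher. The 4 probe sets called higher by limma were 17.4% of the 23, where 5.12% of all probe sets were called higher. Of these 4, 3 belong to Itgb1 and are not independent of each other. Without the block none was called lower, where 3.72% of all were, and 1 was lower at an unadjusted p under 0.05. The median log2 difference was 0.09 over the 23 probe sets and -0.02 over all probe sets.

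The Itgb7 probe set 1418741_at had centred log2 values of 1.03, 0.93 and 0.38 in the Ebf1-Eng samples, against -0.59, -0.38 and -1.03 in the empty-vector samples. All 3 Ebf1-Eng samples lay above all 3 empty-vector samples. The log2 difference was 1.45 ± 0.22 (SE, n = 3 each; limma adjusted p = 0.01).

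Among the Itgb1 probe sets, 1426918_at had 0.77, 0.72 and 0.45 in Ebf1-Eng samples, against -0.50, -0.45 and -0.67 in empty-vector samples, a log2 difference of 1.18 ± 0.12 (SE; limma adjusted p = 0.00217). Probe set 1452545_a_at had 0.92, 0.94 and 0.30 in Ebf1-Eng samples, against -0.42, -0.30 and -0.79 in empty-vector samples, a difference of 1.23 ± 0.21 (limma adjusted p = 0.0143). Probe set 1427771_x_at differed by 0.68 ± 0.12 (limma adjusted p = 0.0158). On all 3 the groups did not overlap. The other 3 Itgb1 probe sets were not called and gave differences of 0.44 ± 0.15, 0.47 ± 0.16 and -0.23 ± 0.21, so the probe sets of this gene differed in size and 1 of them in sign. Averaged over its 6 probe sets, Itgb1 was higher by 0.63 ± 0.10 (limma adjusted p = 0.00792 over genes). Leaving out Ebf1-Eng replicate 1 or replicate 2 left 1 of the 4 calls, that of 1426918_at. The Itgb7 difference was then 1.32 (limma adjusted p = 0.0544) without replicate 1 and 1.37 (0.0556) without replicate 2.

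The α chains gave no call in the fit without pairing. Itgal, the α chain of LFA-1, had on probe set 1435560_at values of -0.11, 0.02 and -0.89 in Ebf1-Eng samples, against 1.69, 1.77 and -0.02 in empty-vector samples, and the groups overlapped because the third empty-vector sample was far below the other two. The difference was -1.47 ± 0.50 (limma adjusted p = 0.136). It was called with the replicate block, as above, and was -2.05 (limma adjusted p = 0.00897) without empty-vector replicate 3. Probe set 1456498_at of Itga4 had values of 0.03, -0.31 and -0.56 in Ebf1-Eng samples, against 1.08, 0.07 and -0.03 in empty-vector samples, which overlapped. Its difference of -0.65 ± 0.31 (limma adjusted p = 0.281) was called with the block, while the other 4 Itga4 probe sets lay between -0.28 and 0.09. The 4 Itga5 probe sets differed by -0.25 to 0.21 and the 2 of Itga6 by -0.08 and -0.05. Itgam differed by 0.40 ± 0.13 (limma adjusted p = 0.115), Itgb2 by 0.10 ± 0.09 and Cd9 by 0.13 ± 0.09.

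**Figure D2:**
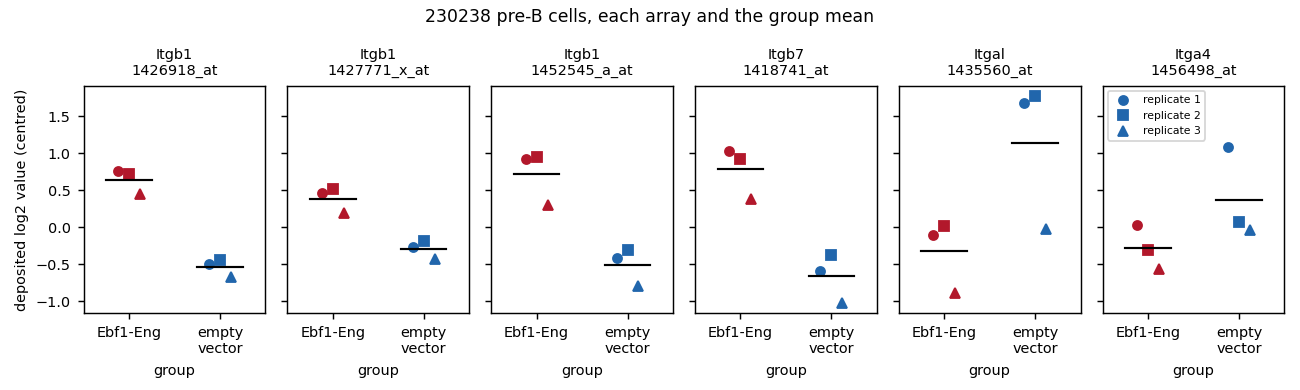
Centred log2 value of each 230238 sample (points, shaped by replicate number) for 6 probe sets, Ebf1-Eng left of empty vector, with the group mean as a line. The 3 Itgb1 probe sets and Itgb7 separate the groups, while Itgal and Itga4 overlap, with the lowest empty-vector values at -0.02 and -0.03.

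Genes around the integrins were counted from 5 lists, each gene by its most variable probe set, where 7.48% of all genes were called higher in Ebf1-Eng cells and 5.27% lower. Among 16 other integrin subunits, 2 were higher and none lower: Itgb3, the β chain of the vitronectin receptor, by 3.30 ± 0.14 (limma adjusted p = 0.000135) and Itgav, its α partner, by 1.04 ± 0.09 (0.00149). Of 23 genes of inside-out activation, 3 were higher and 5 lower. Filamin A (Flna), which binds integrin β tails, was higher by 1.79 ± 0.14, while Rasgrp2, an exchange factor for Rap1, differed by -1.42 ± 0.29 and Cyth1, which binds the β2 tail, by -1.25 ± 0.24. Of 34 genes of outside-in signalling, 6 were higher and 4 lower, with the largest difference in vinculin (Vcl, 2.85 ± 0.17). Among 22 tetraspanins and Cd9 partners 3 were higher, including the Cd9-associated growth factor Hbegf (3.48 ± 0.53) and Cd151 (2.23 ± 0.18), and 3 lower. Of 19 integrin ligands 3 were higher and none lower, with Lamb2, a laminin chain, at 1.51 ± 0.17. The list medians were between -0.17 and 0.08, and the median over all genes was -0.02. B-lineage markers also differed between these groups, with 5 of 14 genes lower and 9 not called. Their list mean was -0.82 to -0.29 in Ebf1-Eng samples, against 0.35 to 0.71 in empty-vector samples. The megakaryocyte and platelet list and the stromal and endothelial list overlapped between the groups, and the remaining marker lists separated them by less. The myeloid list mean was 0.21 to 0.26 in Ebf1-Eng samples, against -0.21 to -0.16 in empty-vector samples, with 2 of 15 genes higher, the Fc receptor gene Fcgr3 (2.69 ± 0.38) and Cd68 (2.16 ± 0.39). The T cell list mean was 0.16 to 0.22 in Ebf1-Eng samples, against -0.38 to -0.08 in empty-vector samples, with 1 of 12 genes higher, the adaptor Lat (3.57 ± 0.22). The NK cell list mean was 0.05 to 0.22 in Ebf1-Eng samples, against -0.16 to -0.05 in empty-vector samples, with 1 of 7 higher, Klrd1 (1.91 ± 0.40). The erythroid list mean was -0.11 to 0.02 in Ebf1-Eng samples, against 0.08 to 0.25 in empty-vector samples, with 1 of 5 genes lower, the carbonic anhydrase gene Car2 (-1.13 ± 0.17). The part of any list in the integrin differences was not tested.

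Within 6 h of Ebf1-ER activation the probe sets of Itga4, Itgam and Itgb7 were lower, and they were lower at 12 h and 24 h as well. Itga4 was lower on all 5 of its probe sets at each time, by 1.99-fold to 11.3-fold at 24 h, Itgam was 5.06-fold lower and Itgb7 was 4.04-fold lower at 24 h. Itgal and Itgb2, the chains of LFA-1, were called lower at 12 h and 24 h only, and no probe set of Itgb1 was called at any time. In bulk RNA, fewer cells of a type and less RNA per cell cannot be told apart. At 6 h, 8 of 23 probe sets (34.8%) were called lower and 1 higher, where 14.7% and 14.2% of all probe sets were. At 12 h the counts were 12 (52.2%) lower and 1 higher, where 17.1% and 15.4% of all were. At 24 h they were 11 (47.8%) lower and 2 higher, where 16.3% and 16.1% of all were. Of the lower probe sets 5 at each time belong to Itga4 and are not independent of each other. The median log2 difference over the 23 probe sets was -0.19, -0.38 and -0.28 at 6, 12 and 24 h, and over all probe sets 0.00, 0.01 and 0.02.

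For Itga4, probe set 1427615_at had 3.15 and 3.37 at 0 h, -0.02 and 0.05 at 6 h, 0.02 and -0.02 at 12 h, and -0.27 and -0.22 at 24 h. The 0 h samples stood above all later ones. The differences from 0 h were -3.24 ± 0.10, -3.26 ± 0.10 and -3.50 ± 0.10 (SE, n = 2 each; limma adjusted p = 4.04e-06, 2.12e-06 and 3.04e-06), and neither step after 6 h was called. Probe set 1450155_at, the one that changed least at 24 h, had 0.96 and 0.91 at 0 h, 0.01 and -0.05 at 6 h, 0.12 and -0.20 at 12 h, and -0.11 and -0.01 at 24 h. It differed from 0 h by -0.99 ± 0.12 at 24 h (limma adjusted p = 0.000448). The other 3 differed by -2.59 ± 0.09, -2.46 ± 0.18 and -1.12 ± 0.11 at 24 h, so the direction was shared by all 5 while the size ranged widely.

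Itgb7, the β7 partner of α4, moved in steps. Its values were 1.28 and 1.39 at 0 h, 0.22 and 0.27 at 6 h, -0.22 and -0.23 at 12 h, and -0.61 and -0.75 at 24 h, and no 2 times overlapped. The differences from 0 h were -1.09 ± 0.09, -1.56 ± 0.09 and -2.02 ± 0.09 (limma adjusted p = 9.48e-05, 1.4e-05 and 8.84e-06). The step between 12 h and 24 h, -0.45 ± 0.09, had a limma adjusted p of 0.0485 and lost its call under each removal of 1 array (0.058 to 0.293) and with the replicate block (0.0819). The step between 6 h and 12 h, -0.48 ± 0.09, was not called (0.0614).

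Chains of the β2 integrins were lower as well. Itgam, the α chain of Mac-1, had 2.28 and 2.26 at 0 h, -0.48 and 0.29 at 6 h, -0.04 and -0.16 at 12 h, and -0.18 and 0.04 at 24 h, with differences from 0 h of -2.37 ± 0.22, -2.37 ± 0.22 and -2.34 ± 0.22 (limma adjusted p = 0.000155, 0.000117 and 0.000141). Both 0 h samples lay far above all others, which overlapped between times. Itgal probe set 1435560_at had 0.33 and 0.46 at 0 h, 0.11 and 0.18 at 6 h, -0.11 and -0.13 at 12 h, and -0.53 and -0.54 at 24 h. Its differences from 0 h were -0.25 ± 0.09 (limma adjusted p = 0.0749), -0.52 ± 0.09 (0.00264) and -0.93 ± 0.09 (0.000139). The second Itgal probe set, 1425367_at, differed by -0.14 ± 0.18 at 24 h and was not called. Without 0 h replicate 2 its differences were -0.44 at 12 h and -0.43 at 24 h. Itgb2, the shared β chain, had 0.21 and 0.38 at 0 h, 0.03 and 0.12 at 6 h, -0.03 and -0.14 at 12 h, and -0.40 and -0.35 at 24 h. It differed from 0 h by -0.22 ± 0.10 (limma adjusted p = 0.154), -0.38 ± 0.10 (0.0193) and -0.67 ± 0.10 (0.00126), and the 12 h call was lost without 0 h replicate 2 (0.0834), without 12 h replicate 2 (0.114) and when only those 2 times were fitted (0.0526).

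Marker lists of several cell types also differed over the same hours, at 24 h against a background of 17.5% of all genes lower and 20.7% higher. Of the 15 myeloid markers 10 were not called at 24 h, and the list's median difference was -0.01. The 4 lower ones were Itgax, the α chain of another β2 integrin (-2.33 ± 0.13), myeloperoxidase (Mpo, -2.01 ± 0.11), Fcgr3 (-1.72 ± 0.10) and Lyz2 (-0.63 ± 0.09), and Adgre1 was higher (0.79 ± 0.11). The myeloid list mean was 0.21 and 0.30 at 0 h, 0.04 and 0.11 at 6 h, -0.08 and -0.05 at 12 h, and -0.18 and -0.09 at 24 h. Of 7 NK cell markers 5 were lower, with a list mean of 0.67 to 0.81 at 0 h and -0.31 to -0.27 at 24 h, and of 12 stromal and endothelial markers 5 were lower, with a list mean of 0.42 to 0.67 at 0 h and -0.22 to -0.03 at 24 h. Of 12 T cell markers 4 were lower and 1 higher, with a list mean of 0.26 and 0.35 at 0 h and at most 0.10 at every later time. The erythroid list mean was -0.27 to -0.23 at 0 h and -0.08 to 0.03 at 24 h. Of 14 B-lineage markers 4 were higher and 2 lower, with a list mean of -0.04 and -0.01 at 0 h and 0.50 and 0.52 at 24 h. Their part in the changes of Itgam, Itgb2 and Itga4 was not tested, and centred values do not show which markers were near the detection limit.

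Cd9 had 0.17 and 0.11 at 0 h, 0.30 and 0.22 at 6 h, -0.36 and -0.52 at 12 h, and -0.17 and -0.11 at 24 h, so both 12 h samples were the lowest of the 8. It was called lower at 12 h than at 0 h (-0.58 ± 0.09, limma adjusted p = 0.00202) and not at 6 h (0.12 ± 0.09) or 24 h (-0.28 ± 0.09, 0.0563). The 24 h difference was called on single-gene probe sets only (0.0475), on the more variable probe sets alone (0.0419) and over gene means (0.0313). Between 6 h and 12 h it was the 1 member called, at -0.70 ± 0.09 (limma adjusted p = 0.0144), where 0.471% of all probe sets were called lower and 0.930% higher. That call was lost when any of the 4 arrays of 6 h or 12 h was left out (0.0755 to 0.139). Between 12 h and 24 h the 1 member called was Itgb7, above, where 1.31% of all probe sets were called lower and 1.53% higher. No member was called higher by limma in either step; at an unadjusted p under 0.05, 0 were higher between 6 h and 12 h and 2 between 12 h and 24 h.

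The partners of β1 were mixed. Itga5, the α chain of the fibronectin receptor, gave opposite directions: 1423267_s_at was higher by 0.60 ± 0.09, 0.44 ± 0.09 and 0.39 ± 0.09 at 6, 12 and 24 h (limma adjusted p = 0.00212, 0.00803 and 0.014), and 1458996_at was lower, with differences of -0.83 ± 0.14, -0.77 ± 0.14 and -0.91 ± 0.14 (0.00343, 0.00428 and 0.00187). Probe set 1457561_at was called lower at 12 h and 24 h, at -0.63 ± 0.18 and -0.70 ± 0.18, and lost both calls without 0 h replicate 1 (limma adjusted p = 0.181 and 0.123). Probe set 1423267_s_at lost its 12 h call without 12 h replicate 1 (0.0578) and its 24 h call without 24 h replicate 2 (0.103). No direction is given for Itga5 as a gene. Itga6, the α chain of a laminin receptor, was called higher at 24 h on 1422445_at, by 0.27 ± 0.08 (limma adjusted p = 0.0355), a call that no removal of 1 array kept (0.054 to 0.163). The 6 Itgb1 probe sets differed from 0 h by -0.11 to 0.44 at 24 h, with none called. These differences depended on the 0 h arrays. Without 0 h replicate 2, 1426919_at differed by 0.65 at 24 h in place of 0.44. Without 0 h replicate 1, 1427771_x_at differed by 0.37 at 24 h in place of 0.11. That removal also gave 6 h differences of 0.46 to 0.51 for 1426918_at, 1427771_x_at and 1452545_a_at.

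**Figure D3:**
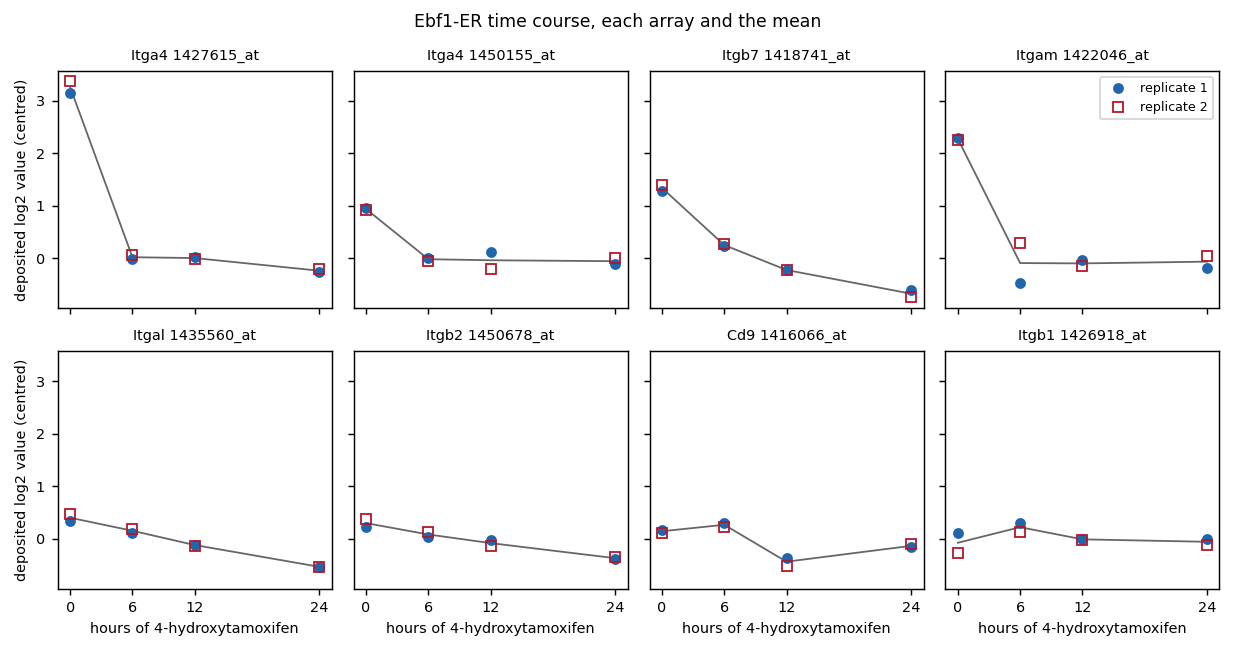
Centred log2 value of each Ebf1-ER sample (2 points per time, with a line through the means) against hours of 4-hydroxytamoxifen for 8 probe sets. Itga4 1427615_at, 1450155_at, Itgb7 and Itgam are highest at 0 h, Itgal and Itgb2 decline up to 24 h, Cd9 is lowest at 12 h, and Itgb1 1426918_at stays between -0.27 and 0.31.

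At 24 h the 5 surrounding lists, again by the most variable probe set of each gene, had more genes lower than higher, against a background of 20.7% higher and 17.5% lower over all genes. Of the 16 other integrin subunits 8 were lower and none higher, with Itgax as above and Itgb3 at -1.76 ± 0.11. Of 23 genes of inside-out activation 10 were lower and 2 higher: the adaptor Skap2 was at -1.37 ± 0.08, Tln1 at -1.23 ± 0.09 and the exchange factor Rapgef3 at -1.15 ± 0.16. Of 34 outside-in genes 14 were lower and 2 higher, led by the adaptor Lims1 at -1.70 ± 0.26. Among 22 tetraspanins and Cd9 partners 10 were lower, with Tspan13 and Cd53 at -1.27 ± 0.10 and -1.27 ± 0.09, and 4 higher. Of 19 ligands 4 were lower, with thrombospondin 1 (Thbs1) at -3.27 ± 0.31 and fibronectin (Fn1), a ligand of α4β1 and α5β1, at -1.27 ± 0.20, and 1 was higher. The list medians were between -0.36 and -0.02, and the median over all genes was 0.05.

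In the lymph nodes of Ebf1+/- Pax5+/- mice, Itgam was 15.4-fold lower than in WT pro-B cells, Cd9 15.7-fold lower and Itgb2 4.32-fold lower, while 3 of the 6 Itgb1 probe sets were 1.53-fold to 2.46-fold higher. No probe set of Itga4, Itga5, Itga6, Itgal or Itgb7 was called. Itga4 1456498_at (-0.66) was called lower with all 18 arrays and the node as a random block (limma adjusted p = 0.0452) and without node 292 (-0.75, 0.0498). The 3 probe sets called lower and the 3 called higher were 13.0% of the 23 each, where 6.94% of all probe sets were called lower and 8.26% higher. The 3 called higher all belong to Itgb1 and are not independent of each other. The median log2 difference was 0.05 over the 23 probe sets and 0.01 over all probe sets. Each lymph node entered as the mean of its 2 arrays (n = 8), against the 2 WT arrays. Genotype, tumour, source of the cells and cell composition cannot be told apart in this comparison, for any of the genes.

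Itgam had a lowest, median and highest value of -1.21, -0.25 and 0.91 in the 8 nodes, against 3.50 and 3.80 in WT pro-B cells, a log2 difference of -3.95 ± 0.45 (limma adjusted p = 0.000371). Itgb2 had -0.82, -0.13 and 1.10 in the nodes, against 1.86 and 2.10 in WT pro-B cells (-2.11 ± 0.43, limma adjusted p = 0.00898). Neither gene's groups overlapped, and the node nearest to WT was a different one for each, node 292 for Itgam and node 279 for Itgb2. The WT arrays were high in the same direction for the myeloid list given above: 12 of its 15 genes were lower in the nodes, among them Mpo (-7.21 ± 0.20), the neutrophil granule genes Camp (-8.08 ± 0.53) and Ngp (-8.54 ± 0.79), and the granulocyte receptor gene Csf3r (-3.50 ± 0.13). That list's median difference was -2.53, and its part in the Itgam and Itgb2 differences was not tested.

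Cd9 had -1.55, -0.06 and 1.5 in the nodes, against 3.62 and 3.98 in WT pro-B cells (-3.97 ± 0.68, limma adjusted p = 0.00394), with no overlap. Of 6 markers of megakaryocytes and platelets, in which Cd9 is abundant, 3 were lower in the nodes, with a list mean of -0.03 to 0.05 in the nodes, against 0.33 and 0.46 in the WT arrays. Of 12 stromal and endothelial markers 5 were lower, with a list mean of -0.10 to 0.28 in the nodes, against 0.70 and 1.00 in the WT arrays. Of 5 erythroid markers 2 were lower. The myeloid list given above also stood higher in the WT arrays, at 4.14 and 4.32, against -0.67 to 1.19 in the nodes. Of its 15 genes 12 were lower in the nodes. The part of these lists in the Cd9 difference was not tested.

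Itgb1 probe set 1426918_at had -0.49, 0.05 and 0.40 as its lowest, median and highest node, against -1.29 and -1.20 in WT pro-B cells, and all 8 nodes lay above both WT arrays. The difference was 1.30 ± 0.22 (limma adjusted p = 0.0035). Probe set 1452545_a_at differed by 0.97 ± 0.18 (limma adjusted p = 0.00603) and 1427771_x_at by 0.62 ± 0.14 (0.0147). The other 3 Itgb1 probe sets differed by 0.12 to 0.15 and were not called, and the mean of all 6 differed by 0.55 ± 0.12 (limma adjusted p = 0.0137 over genes). Without WT array 621, the calls of Itgb2 (limma adjusted p = 0.0615), 1452545_a_at (0.0799) and 1427771_x_at (0.0574) were lost. Without WT array 622, those of Itgb2 (0.109), Cd9 (0.0665) and 1427771_x_at (0.173) were lost. Each removal left 3 calls, with the lone WT array assumed to vary like the nodes.

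Of the surrounding genes, where 11.4% of all genes were called higher in the nodes and 8.80% lower, the outside-in list had 10 of 34 genes lower and 3 higher. The lower ones included the myeloid Src-family kinase Fgr (-3.33 ± 0.44), α-actinin 1 (Actn1, -3.28 ± 0.62) and β-parvin (Parvb, -2.39 ± 0.37). Among 19 ligands 3 were lower, Vcam1, the VLA-4 ligand of stromal cells (-3.71 ± 0.38), Thbs1 (-3.63 ± 0.30) and Cdh1 (-1.76 ± 0.21), and 1 higher. Vcam1 is also in the stromal and endothelial marker list, so its difference enters both lists. The inside-out list had 4 of 23 lower and 2 higher, with Rapgef3 at 2.27 ± 0.63. The other integrin subunits had 2 of 16 lower and none higher, and the tetraspanins and Cd9 partners 4 of 22 lower and 3 higher, with Tspan33 at -1.64 ± 0.10 and Tspan4 at 1.64 ± 0.37. The list medians were between -0.21 and 0.16, and the median over all genes was 0.02.

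**Figure D4:**
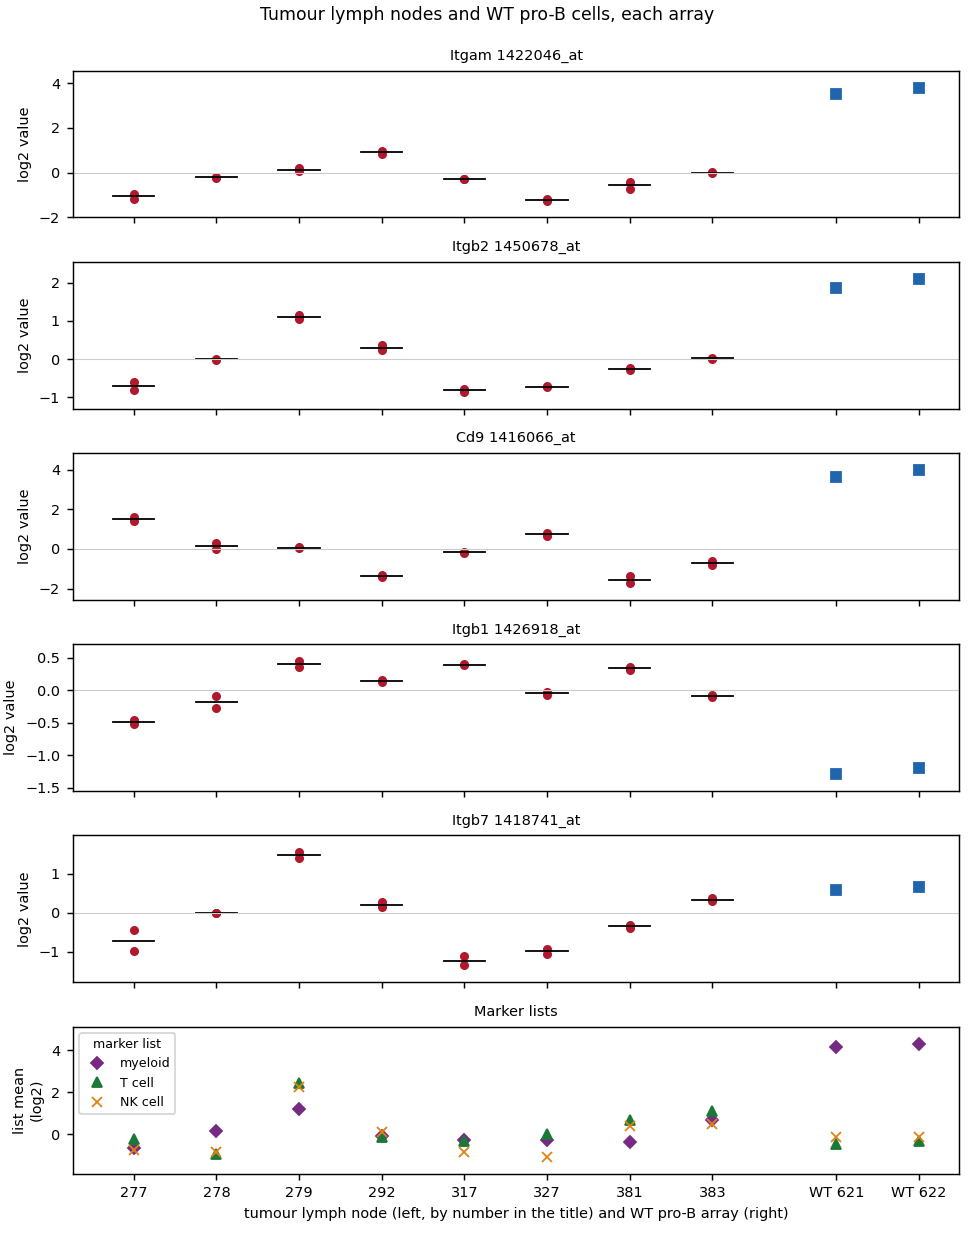
Centred log2 values of both arrays of each tumour lymph node (circles, with the node mean as a line) and of the 2 WT pro-B arrays (squares) for 5 probe sets, and the mean of 3 marker lists in the same samples. The WT arrays are above all nodes for Itgam, Itgb2, Cd9 and the myeloid list (4.14 and 4.32) and below all nodes for Itgb1, and node 279 is highest for Itgb2, Itgb7 and the T cell and NK cell lists.

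The 8 lymph nodes differed among themselves more than their paired arrays did. Cd9 had the widest span of the members, 8.29-fold (3.05 on the log2 scale) between node 277, its highest, and node 381 (-1.55), its lowest. Without node 277 its span was 4.93-fold, below that of Itgb7. Itgb7 had the widest span after Cd9 over all 8 nodes, 6.52-fold between node 279 (1.47) and node 317 (-1.23). By limma's moderated F test over the nodes, 20 of 23 probe sets (87.0%) differed, where 54.0% of all probe sets did, and all 9 genes had at least 1 such probe set. The adjusted p was 2.9e-08 for Cd9 and 3.33e-07 for Itgb7, and the SD between paired arrays was 0.14 and 0.16. The 2 arrays of a node share its cells, so the test covers preparation and measurement of 1 node, not variation within a mouse.

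No single node carried all the high values. Node 317 was the highest of the 8 on 10 of the 23 probe sets, including all 4 of Itga5 and both of Itga6, and node 279 on 5, Itgb2, Itgb7, Itgal 1435560_at and 2 of Itgb1. The B-lineage list mean was lowest in node 317, at -0.74, against -0.38 to 0.36 in the other nodes, and its part was not tested. Itga5 1458996_at spanned 4.65-fold, between 1.05 in node 317 and -1.16 in node 277, and 1457561_at spanned 4.05-fold between the same nodes. The span of 1458996_at was 2.71-fold without node 277 and 2.75-fold without node 317. Itga6 1422444_at spanned 3.28-fold, between 0.58 in node 317 and -1.13 in node 278. Itgam spanned 4.34-fold, with node 292 highest at 0.91 and node 327 lowest at -1.21, and 2.51-fold without node 292. Itga4 spanned 1.85-fold to 2.85-fold on its 5 probe sets, and Itgb1 1.28-fold to 1.86-fold on its 6.

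Node 279 also had the highest means of the T cell list (2.45, against -0.94 to 1.09 in the other nodes), the NK cell list (2.22, against -1.08 to 0.47) and the myeloid list (1.19, against -0.67 to 0.65). Its Itgb7 value was 1.47, its Itgb2 value 1.10 and its Itgal 1435560_at value 0.58. Without that node, the span of Itgb7 was 2.95-fold, that of Itgb2 2.17-fold in place of 3.77-fold, and that of Itgal 1435560_at 1.99-fold in place of 2.60-fold. Leaving out 1 node reduced the span by over 1.5 times on 5 of the 23 probe sets, those of Itgb7, Itgb2, Itgam and Cd9 and Itga5 1458996_at. The part of those cell types in the differences between nodes was not tested.

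Across the 8 nodes, α and β chains that form a dimer were compared as means of their probe sets in 6 pairs. None was related at an adjusted p under 0.05 in an exact two-sided permutation test over all pairings. Itgam and Itgb2 had a Pearson r of 0.684 (exact p = 0.0614, adjusted 0.184) and a Spearman rho of 0.833 (exact p = 0.0154, adjusted 0.0923), and r was 0.7 without the 2 nodes farthest from the Itgam median. Itgal and Itgb2 had r = 0.687 (exact p = 0.0577, adjusted 0.184) and rho = 0.524 (exact p = 0.197, adjusted 0.393), and r was 0.213 without the 2 farthest nodes, 279 and 327. Itga6 and Itgb1 had r = 0.609 (exact p = 0.11, adjusted 0.219) and rho = 0.738 (exact p = 0.0458, adjusted 0.137), with r = 0.334 without 2 nodes. Itga5 and Itgb1 had r = 0.549 (exact p = 0.159, adjusted 0.238) and rho = 0.452 (exact p = 0.267, adjusted 0.401), with r = -0.162 without 2 nodes. For Itga4, r was -0.424 with Itgb7 (exact p = 0.296, adjusted 0.356; rho = -0.238, exact p = 0.582, adjusted 0.699) and -0.213 with Itgb1 (exact p = 0.627, adjusted 0.627; rho = -0.143, exact p = 0.752, adjusted 0.752). Without the 2 nodes farthest from the Itga4 median they were -0.61 and -0.487.

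Over all 32 arrays, the genes whose probe sets followed each member's most variable probe set most closely are given as a description. The arrays come from 3 experiments, and r was taken over all arrays without removing the means of the experiments. All probe sets had a median of 0 within the 230238 and within the Ebf1-ER experiment, but only 24.1% within the tumour experiment. A shared r can therefore rest on differences within experiments and between them. Itgb2 was followed most closely by the histone demethylase gene Kdm5b (Pearson r = 0.943), Vsir (0.91) and Anxa2 (0.909). Itgam was followed by the scaffold gene Iqgap1 (0.925), Trp53inp2 (0.92) and Tcn2 (0.908), and Itgb1 by Sbf1 (0.896), Abhd12 (0.882) and Vmp1 (0.879). Such an r can rest on a few arrays. Values of Itgam were 3.50 and 3.80 in the WT pro-B arrays and 2.28 and 2.26 at 0 h, against at most 0.97 elsewhere. Itga4 was followed by Ppil6 (0.891), Ddx4 (0.886) and Lrrc23 (0.884). Itgb7 was closest to the interferon-induced GTPase gene Ifi47 (0.884), Tapbp, a chaperone of MHC class I loading (0.874), and Phf1 (0.873). Cd9 was closest to the proteoglycan gene Vcan (0.882), Zfp354b (0.872) and Zcchc3 (0.858). The closest genes of Itga5 were Stum (0.861), the repressor gene Etv6 (0.847) and Zbtb10 (0.845), those of Itgal Prex1 (0.808), Rpf1 (0.783) and Slc23a1 (0.77), and those of Itga6 Galnt3 (0.801), Hacd1 (0.801) and Bend4 (0.799). None of the 27 was an integrin chain.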

How the data were processed

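RNA expression was measured on 32 arrays in 8 groups taken from the labels. The authors deposited one matrix of log2 values, for which the submitters' processing notes name RMA, and as the sources used here do not state the logarithm's base, base 2 was assumed. Every tested probe set had a median of 0 over the 230238 experiment (6 arrays) and likewise over the Ebf1-ER experiment (8 arrays), so the values were centred there, and 24.1% did over the 18 arrays of the tumour experiment. No count, depth or signal over background can be read from such values. Of 45101 probe sets, 64 controls were left out, and 34945 of the rest had 1 gene symbol, 932 several and 9160 none.

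Groups were compared within each experiment with lmFit and eBayes of limma 3.58.1 (R 4.3.3), two-sided, with p-values adjusted over all 45037 probe sets. One fit held all 4 Ebf1-ER times. The 2 arrays of a lymph node were averaged, except in the moderated F test between nodes. The fits were tested on simulated data. Exact permutation tests and tables used Python 3.11.15, numpy 2.4.6, pandas 2.3.3 and scipy 1.17.1. The 230238 replicate numbers may pair the samples, since deviations from the group means correlated within each number (r = 0.256, 0.387 and 0.481). However, Ebf1-Eng 1 correlated more with empty vector 2 (0.345) than with its own number, and Ebf1-Eng 2 also correlated with empty vector 1 (0.122). Deviations within a group sum to 0, so these r values depend on each other. The main fit did not use the pairing, and the replicate block was an alternative. Alternatives also covered single-gene probe sets only, robust eBayes, centring of arrays, the more variable probe sets alone, gene-level values, fits of 2 times, a random node block and leaving out each sample.

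All member probe sets were named. From each surrounding list up to 3 called genes with the largest changes were chosen, and for each member the 3 genes with the highest r over 32 arrays. The members, lists and markers were chosen with earlier results of these data known.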

Additional observations from a re-analysis of the deposited data

Results flagged for a closer look

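One of the 23 probe sets had a lymph node far from the other 7 by Dixon's criterion. Itga4 probe set 1436037_at was highest in node 292, at a centred log2 value of 0.55, and the gap to the next node took up 0.554 of the whole range. Chance flags about 1 in 20 such groups. The other 4 Itga4 probe sets had no such node.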

How the results depend on the processing

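Over the single probe sets, 1408 of 1472 values with 1 sample or node left out kept their side of the threshold. So did 937 of 955 under the other alternatives. No called difference changed sign, while the sign of differences not called was not followed. The F tests between nodes, also among these values, have no sign. The 9 probe sets called at 6 h against 0 h stayed called in every alternative, but others joined them when 1 array of 0 h was left out. Without 0 h replicate 1 these were the Itgb1 probe sets given above. Without 0 h replicate 2, which left 1 array in that group, the 6 h differences were -0.72 for Itga5 1457561_at and -0.48 for Itgal 1425367_at. For Ebf1-Eng against empty vector the count was 1 to 6 with a replicate left out, and it was 6 with the replicate block. For 12 h against 6 h it was 2 on single-gene probe sets, 2 genes by the gene mean or by the most variable probe set, 0 when only those times were fitted and 0 to 1 with a sample left out. For 24 h against 12 h it was 2 on single-gene probe sets, 2 on the more variable probe sets alone, 2 genes by the most variable probe set, and 0 with robust eBayes, with the replicate block, with only those times fitted and with any sample left out. For tumour nodes against WT pro-B it was 3 to 7 with a sample left out. The Ebf1-ER samples share only a number (r between -0.171 and 0.152 for pairs of that number), and apart from the 24 h against 12 h count the block took 1 call, Itga6 1422445_at at 24 h against 0 h (limma adjusted p = 0.0572), and changed no other. No r of the 6 chain pairs passed the threshold under any alternative (lowest adjusted exact permutation p = 0.0737). The cause of these shifts was not tested. The number of arrays limits precision, above all the 2 WT arrays and the 2 per time.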
